A study of Mus musculus with 9 samples.

Results

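The difference between the craniofacial region and the trunk of the mouse embryo was compared here between neural crest-derived cells and the other cells of the same regions. For each probe, the regional difference in EGFP- cells was subtracted from the regional difference in EGFP+ cells, and genes were sorted by whether the regional difference was found only in EGFP+ cells, only in EGFP- cells or in both. All 9 arrays of the series entered, and 23062 of the 23473 probes were tested. Names were known for 306 of them, standing for 302 genes, from the study's own supplementary list of 347 probes. The study chose those probes for both a significant difference and at least a 4-fold change among groups on 8 of these arrays. The named genes were thus picked for changing, and all other probes are unnamed here. The p-values of the named genes and the agreement of their replicates are not independent of that choice.

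The embryos carried P0-Cre and a floxed EGFP reporter (CAG-CAT-EGFP), and were taken at E12.5. The promoter of P0, myelin protein zero, drives Cre, so that EGFP marks the cells in which that promoter has been active and their descendants, whatever they have become. Cells were dissociated, sorted for EGFP, and their RNA was hybridised to 3D-Gene arrays with 1 colour. EGFP+ cells of the craniofacial region are called Cp (2 arrays) and those of the trunk Tp (3 arrays); EGFP- cells are called Cn (craniofacial, 2 arrays) and Tn (trunk, 2 arrays). All came from the same cross, and the heart fields had been cut away from the trunk. The study calls its replicates biological duplicates without saying whether they came from separate litters, so each p-value covers the spread among these arrays.

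Neural crest cells leave the dorsal neural tube and settle along the whole body axis. In the head they give rise to cartilage, bone and connective tissue of the face as well as to nerves and glia, while in the trunk they form sensory and sympathetic neurons, Schwann cells and pigment cells. The EGFP- fraction of the head holds the brain, and that of the trunk the spinal cord, somites and viscera. Hox genes, transcription factors laid out in clusters, are used along the axis by crest and non-crest cells alike and are largely silent in front of the hindbrain.

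Each value is the log2 of the processed intensity that the authors deposited, which has a median of 25 on every array. On the 9 arrays the median spot was 1.81 to 3.21 times the blank spots, lowest on Tp replicate 3. A blank limit was set at 2 SD over the mean of the blank spots, and 72.8% to 90.2% of probes passed it. The share was lowest on Cn replicate 2, where the blank spots had an SD of 3.62, against 1.13 to 2.16 on the others. The log2 processed level at the limit was 2.37 on that array, against 0.95 to 1.44 on the others. The limit is read on the raw spot signal, so a probe may miss it at a processed value near that of a probe that passes. Replicate 1 of all 4 groups shared a scan, which here means the date in the scanner's header. Replicate 2 of Cp and Cn shared another and replicate 2 of Tp and Tn another, with Tp replicate 3 in a scan of its own. A regional difference over the replicate 2 arrays therefore crosses scans, while the difference of differences of replicates 1 and of replicates 2 each sets EGFP+ against EGFP- arrays of the same scans. The scanner gain still differed within scans. In replicate 1 it was 37 for Cp and Tp and 36 for Cn and Tn. In replicate 2 it was 32 for Cp, 31 for Cn and 36 for Tp and Tn. The labels fit the sort and the dissection where named markers allow a check. The summed intensity of 11 probes of red blood cell genes was 931 to 1680 in Cp and 1720 to 2600 in Tp, against 104000 to 136000 in Cn and 99900 to 122000 in Tn. All 15 named Hox genes were lower in the craniofacial than in the trunk arrays of both populations. The study picked these named genes for differing among the groups, so genes that did not differ could not enter, and the check is weak.

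In EGFP+ cells 2007 probes differed between the regions in limma at an adjusted p of 0.05, which is 8.7% of those tested, 911 higher (3.95%) and 1096 lower (4.75%) in Cp. In EGFP- cells 300 differed, or 1.3%, 124 higher (0.538%) and 176 lower (0.763%) in Cn. For 1398 probes, or 6.06%, the difference of differences was called, 703 positive (3.05%) and 695 negative (3.01%). At an unadjusted p of 0.05 the numbers were 4395, 2328 and 3843. Neither count compares the populations by itself, because the threshold on the raw p that the adjustment allowed was 0.00433 in EGFP+ and 0.000646 in EGFP- cells; with all 3 tests adjusted together the counts were 1780, 529 and 1320. The regional differences also spread more widely in EGFP+ cells, with an SD over probes of 0.71 against 0.54 in EGFP- cells, and passed 1 on the log2 scale in either direction for 10.1% of probes in EGFP+ and 5.03% in EGFP- cells. Across the 23062 probes, which are not independent, the correlation of both regional differences was 0.0643. The median difference of differences over all probes was 0.18, which each value below can be read against.

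A regional difference was placed only in EGFP+ cells where it passed the test there, did not pass in EGFP- cells and was smaller there in size, and the difference of differences passed as well. This held for 1019 probes (4.42%), 472 higher (2.05%) and 547 lower (2.37%) in the head. Only in EGFP- cells, by the mirrored rule, were 130 probes (0.564%), 65 in each direction (0.282%). In both populations were 122 probes (0.529%), 85 in the same direction (0.369%), 14 of those by a called unequal amount (0.0607%), and 37 in opposite directions (0.16%). A further 914 probes (3.96%) passed in 1 population and stay undecided, 904 with no called difference of differences and 10 with one but with the larger difference in the population where it was not called, and 188 (0.815%) passed only for the difference of differences. Of the 306 named probes, 149 fell in the first class, 25 in the second, 37 and 11 in both in the same and in opposite directions, 25 were undecided, 1 passed only for the difference of differences and 58 passed no test. Called among the 306 named probes were 177 lower and 43 higher for Cp minus Tp, and 42 lower and 33 higher for Cn minus Tn. For the difference of differences 153 were negative and 39 positive. These shares reflect how the study chose the probes and say nothing of how common each class is. A test that is missed in 1 population does not show that the regions are alike there. Where the 95% interval of the regional difference in the other population also had to lie between -1 and 1, 320 probes stayed only in EGFP+ cells, 52 of them named, and 55 only in EGFP- cells, 12 of them named.

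**Figure D1:**
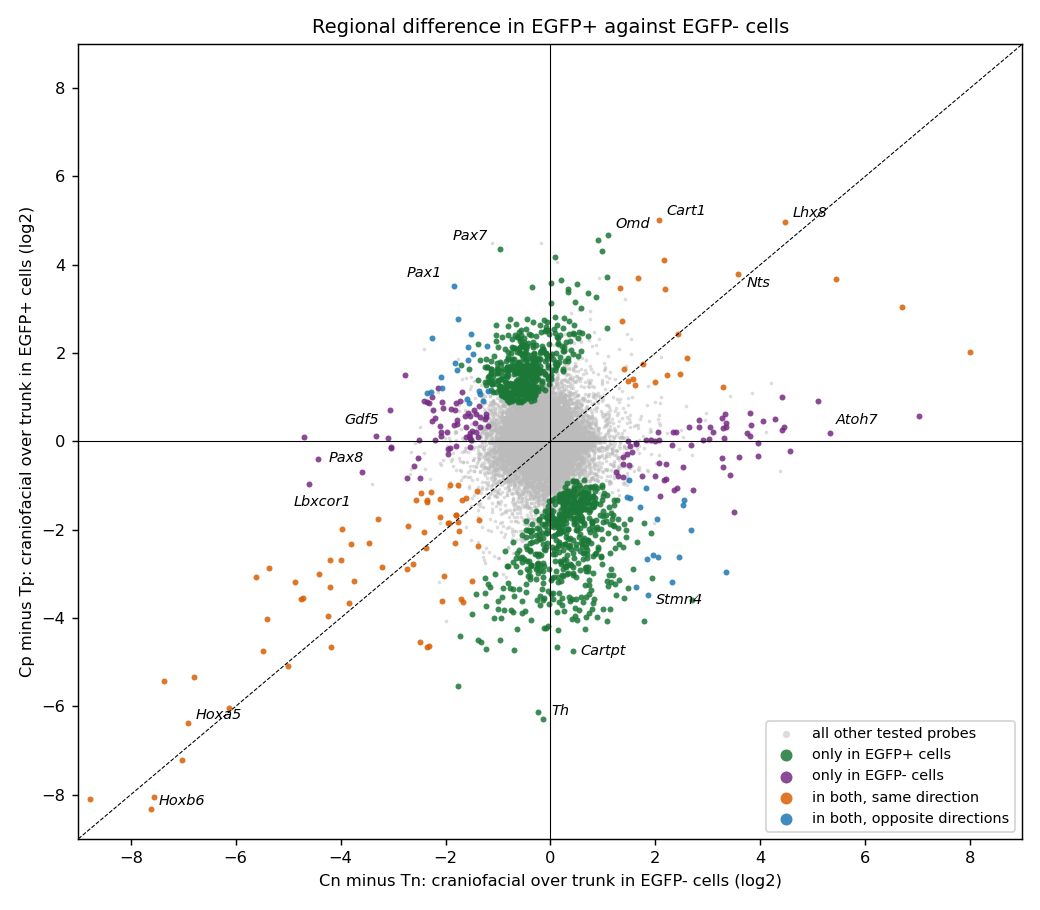
Regional difference in EGFP- cells (Cn minus Tn, horizontal axis, log2) against that in EGFP+ cells (Cp minus Tp, vertical axis, log2), 1 point per probe for the 23062 tested probes, coloured by class, with equality as a dashed line. The Hox genes lie along the dashed line at the lower left, the 1019 probes of the EGFP+ class along the vertical axis and the 130 of the EGFP- class along the horizontal axis.

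The number of calls was far lower on values made another way. With the scanner's own spot signal in place of the processed intensity, corrected by the surrounding ring (normexp, offset 50) and quantile-normalized, 45 probes passed for the difference of differences (0.195%), 37 of them among the 1398, and 2115 did at an unadjusted p of 0.05. The ring-corrected values called 86 probes in EGFP+ cells (0.373%) and 38 in EGFP- cells (0.165%), and left 23, 13 and 5 probes in the 3 classes. Among the 149 named probes only in EGFP+ cells, 146 kept their sign on the ring-corrected values and 13 passed; among the 25 only in EGFP- cells, 24 kept it and 4 passed. All values that follow are from the processed intensities unless the ring is named.

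Stretches before the start of 5 genes, 1 or 2 for each class, are given to show the promoters that these patterns belong to; they are RefSeq sequences of the build GRCm38.p6, 250 bases up to the start of the gene, with the letters CANNTG, the core bound by helix-loop-helix factors, in capitals. Th, only in EGFP+ cells and lower in the head, is at chr7:142899996-142900245 on the minus strand. Pax7, only in EGFP+ cells and higher in the head, is at chr4:139832969-139833218 on the minus strand. Atoh7, only in EGFP- cells, is at chr10:63099535-63099784 on the plus strand. Hoxa5, in both, is at chr6:52204588-52204837 on the minus strand, and Pax1, opposite, at chr2:147364744-147364993 on the plus strand.
Th: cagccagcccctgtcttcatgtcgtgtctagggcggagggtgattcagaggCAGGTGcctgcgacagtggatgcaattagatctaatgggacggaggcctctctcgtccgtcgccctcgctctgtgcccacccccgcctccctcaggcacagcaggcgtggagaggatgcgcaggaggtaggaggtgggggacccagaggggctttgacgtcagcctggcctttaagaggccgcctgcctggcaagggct
Pax7: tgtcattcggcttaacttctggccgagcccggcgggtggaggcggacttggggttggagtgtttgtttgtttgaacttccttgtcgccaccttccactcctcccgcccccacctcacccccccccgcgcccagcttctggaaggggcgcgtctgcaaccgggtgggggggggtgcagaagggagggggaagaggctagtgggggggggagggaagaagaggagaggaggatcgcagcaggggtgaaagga
Atoh7: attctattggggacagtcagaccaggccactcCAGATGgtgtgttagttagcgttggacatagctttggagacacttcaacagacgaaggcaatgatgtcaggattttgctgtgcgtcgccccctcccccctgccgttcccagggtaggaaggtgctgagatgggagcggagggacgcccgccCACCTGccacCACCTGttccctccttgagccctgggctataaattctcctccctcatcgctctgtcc
Hoxa5: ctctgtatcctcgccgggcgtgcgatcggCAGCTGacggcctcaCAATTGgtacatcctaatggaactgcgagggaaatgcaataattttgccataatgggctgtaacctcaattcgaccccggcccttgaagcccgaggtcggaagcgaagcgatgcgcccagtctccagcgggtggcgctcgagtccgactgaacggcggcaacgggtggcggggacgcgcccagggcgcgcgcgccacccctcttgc
Pax1: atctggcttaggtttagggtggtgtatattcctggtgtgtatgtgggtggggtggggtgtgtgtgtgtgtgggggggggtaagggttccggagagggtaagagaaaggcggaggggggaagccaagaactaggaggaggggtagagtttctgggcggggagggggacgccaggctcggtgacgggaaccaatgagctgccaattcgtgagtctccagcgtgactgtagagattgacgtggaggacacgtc
The motif begins 199 bases before the start in Th, 218, 67 and 57 bases before it in Atoh7, and 221 and 206 bases before it in Hoxa5, and these letters are not in the windows of Pax7 and Pax1.

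Of the 302 names, 216 had such a promoter. CANNTG, which reads alike on both strands, was in 66.0% of all 27025 promoters, in 63.6% of 88 of genes only in EGFP+ cells and lower in the head, in 8 of 16 only in EGFP+ cells and higher, 10 of 20 only in EGFP- cells and 11 of 22 in both in the same direction. It was in 1 of 8 of the opposite class. TATAAA on either strand was in 13.0% of all promoters, and in 3 of 88, 4 of 16, 6 of 20, 3 of 22 and 0 of 8 of these sets in the same order. The sets are small, were chosen by the study, and are given as a description with no test.

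Of the 12 gene lists, the one named peripheral neurons had the most members placed only in EGFP+ cells. It also holds genes of neurons in general, such as Stmn4, Elavl4 and Neurod1, so it does not tell peripheral from central neurons. All 35 probes, for 34 genes, were lower in Cp than in Tp, 34 had a called negative difference of differences, and 31 were placed only in EGFP+ cells. Of all 306 named probes, 177 were called lower in Cp, 153 had a called negative difference of differences and 149 were placed only in EGFP+ cells. The list's median was -3.49 for Cp minus Tp and 0.14 for Cn minus Tn, against 0.04 and -0.15 over all probes. Summed over the list, the intensity was 2670 to 3420 in Cp and 23300 to 27700 in Tp, and 11300 to 11500 in Cn and 7160 to 7360 in Tn, so the sum was lowest in craniofacial EGFP+ cells and highest in trunk EGFP+ cells with both EGFP- groups between them. These are bulk samples, in which fewer cells of a type and less RNA per cell cannot be told apart.

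Th, the rate-limiting enzyme of catecholamine synthesis and a mark of sympathetic neurons, had the most negative difference of differences in this class. It read 2.02 and 2.28 in Cp and 7.92, 8.68 and 8.70 in Tp. In EGFP- cells it read 3.88 and 4.28 in Cn and 4.49 and 3.95 in Tn, so that the EGFP- groups overlapped while the EGFP+ groups lay far apart. Cp was 78-fold below Tp, with a log2 difference of -6.29 (standard error 0.31, adjusted p = 4.37e-07), and the interval of the EGFP- difference ran between -0.88 and 0.60. The difference of differences was -6.15 (standard error 0.46, adjusted p = 6.2e-05), or -5.29 from the replicate 1 arrays and -6.73 from the replicate 2 arrays. On the ring-corrected values it was -1.59 and did not pass (adjusted p = 0.497).

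Cartpt, which encodes a neuropeptide precursor, read 4.04 and 3.62 in Cp and 8.45, 8.79 and 8.49 in Tp, with 5.86 and 5.60 in Cn and 5.14 and 5.47 in Tn. The trunk EGFP+ arrays were the highest and the craniofacial EGFP+ arrays the lowest of the 9, and the difference of differences was -5.17 (adjusted p = 6.2e-05). Neurod1, a basic helix-loop-helix factor of neuronal differentiation, read 7.93 and 7.25 in Cp and 11.70, 11.63 and 11.65 in Tp. In EGFP- cells it read 8.97 and 8.57 in Cn and 7.38 and 8.01 in Tn, without overlap and the other way round, although Cn minus Tn was not called (1.08, adjusted p = 0.175). Elavl4, a neuronal RNA-binding protein, read 6.34 and 6.28 in Cp and 10.14, 10.25 and 10.18 in Tp on the brighter of its probes, and 8.80 and 8.89 in Cn and 8.16 and 8.07 in Tn. It too was higher in Cn than in Tn on both arrays with no call (0.73, adjusted p = 0.251). Chga, a protein of secretory granules, read 3.53 and 3.54 in Cp and 7.48, 7.59 and 7.67 in Tp, and 5.73 and 5.36 in Cn and 5.19 and 4.90 in Tn. Its difference of differences of -4.55 passed on the processed values (adjusted p = 7.77e-05) and, at -1.93, on the ring-corrected ones (adjusted p = 0.0174).

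Other genes of this class are not markers of the list. St18, a zinc finger factor, had a difference of differences of -4.44, Dusp26, a protein phosphatase, one of -4.43, and Dll3, a ligand of the Notch family listed here with the neural tube, one of -3.35. The uncharacterised 3110035E14Rik was not above the blank limit on either Cp array, at 1.25 and 0.47, and read 5.45, 5.73 and 5.35 in Tp, 5.98 and 6.01 in Cn and 5.71 and 6.04 in Tn. Craniofacial EGFP+ cells were the group that stood apart, at least 19.3-fold below Tp, computed against the level at the blank limit on the Cp arrays or the probe's own value where that was higher. In EGFP- cells its regional difference was 0.12, with an interval of -0.55 to 0.80.

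Genes of Schwann cells and satellite glia, the support cells of peripheral nerves, followed the neurons with smaller differences. All 11 named were lower in Cp than in Tp, with a median of -2.66, and 7 had a called negative difference of differences. These calls were made for 177 and 153 of all 306 named probes. Of the 11, 6 were placed only in EGFP+ cells, 3 were undecided and 2 were in both. Fabp7, a lipid-binding protein of glial precursors, read 10.86 and 10.63 in Cp and 13.69, 13.67 and 13.55 in Tp. It read 11.03 and 11.04 in Cn and 11.18 and 10.93 in Tn, where the groups overlapped. The interval of that EGFP- difference was -0.57 to 0.54, and the difference of differences was -2.87 (adjusted p = 0.000576), or -7.09 on the ring-corrected values (adjusted p = 0.00763). Lgi4, a secreted factor needed for myelination of peripheral nerve, had a difference of differences of -3.07, and Mal, a myelin proteolipid, one of -2.63, with 1 of its 2 Cn arrays above the blank limit.

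Foxd3, a factor of early crest cells and of glial precursors, was lower in the head in both populations and more so in EGFP+ cells. It read 3.72 and 3.10 in Cp and 7.40, 6.96 and 6.76 in Tp, and 2.71 and 2.05 in Cn and 4.02 and 4.07 in Tn. Cp minus Tp was -3.63 (standard error 0.31) and Cn minus Tn -1.66 (standard error 0.34, adjusted p = 0.0333). The difference of differences, -1.97 (adjusted p = 0.0234), no longer passed without Cp replicate 2, Cn replicate 1 or either Tn array (-2.00 to -1.64), and the EGFP- difference lost its call without Tp replicate 2 or any EGFP- array (-1.99 to -1.33).

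In the other direction, 23 named probes were higher in craniofacial than in trunk EGFP+ cells with no call in EGFP- cells. They included matrix genes of the facial skeleton, patterning factors of the arches and Wnt modulators. Pax7, a paired-box factor of cranial crest and of muscle progenitors, had the highest difference of differences in the class. It read 4.85 and 4.38 in Cp, while all 3 Tp arrays, at 0.18, 0.27 and 0.32, were below the blank limit, the last set to the lowest value of its array because the cell was empty. In EGFP- cells it read 3.26 and 3.24 in Cn and 4.43 and 4.01 in Tn, lower in the head. Cp was at least 10.6-fold above Tp, measured against the level at the blank limit, and the fitted difference of differences was 5.32 (adjusted p = 6.2e-05), with 5.84 and 4.87 from replicates 1 and 2. On the ring-corrected values it was 0.12 (adjusted p = 0.656).

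**Figure D2:**
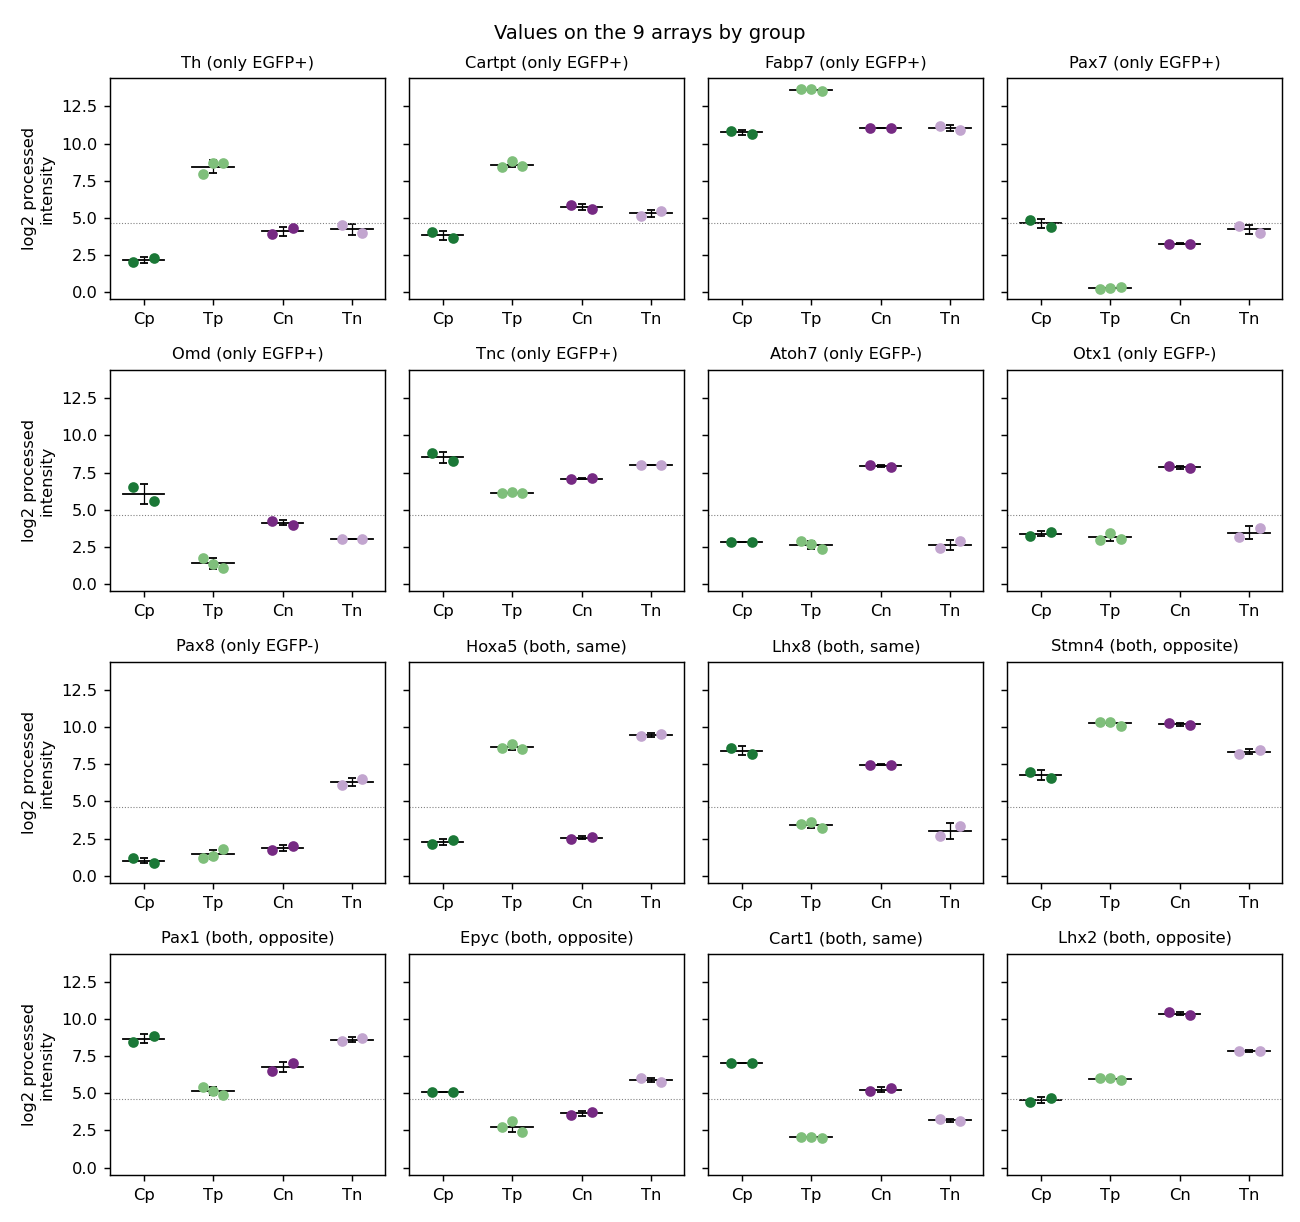
Log2 processed intensity (vertical axis) of 16 genes on the 9 arrays, 1 point per array in the order Cp, Tp, Cn and Tn, with the group mean as a bar and the SD as whiskers (n = 2, 3, 2 and 2) and the array median of 25 as a dotted line. The class of each gene is in the panel title: in Th only the EGFP+ groups lie apart, in Atoh7 only the EGFP- groups, in Hoxa5 both in the same direction and in Stmn4 both in opposite directions.

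Of 11 named genes of skeletal matrix, 10 had a called positive difference of differences, against 39 of all 306 named probes. The list's median difference of differences was 3.29, against 0.18 over all probes. For Cp minus Tp 9 were called higher and 1 lower, against 43 and 177 of all named probes. For Cn minus Tn 5 were called lower and none higher, against 42 and 33. The gene called lower in Cp was lower in the head in both populations, with no called difference of differences. The summed intensity of the list was 1500 to 1860 in Cp and 307 to 376 in Tp, and 644 to 670 in Cn and 1570 to 1760 in Tn, so that its order between the regions was turned round in EGFP- cells. Omd, a proteoglycan of bone, read 6.52 and 5.60 in Cp and 1.77, 1.35 and 1.04 in Tp, with 4.23 and 3.99 in Cn and 3.02 and 3.01 in Tn; 1 of the Tp arrays was not above the blank limit. It was higher in the head in both populations on every array, but the EGFP- difference of 1.10 was not called (adjusted p = 0.211), and the difference of differences was 3.57 (adjusted p = 0.00101). Tnc, a matrix glycoprotein of mesenchyme and tendon, read 8.78 and 8.26 in Cp and 6.13, 6.22 and 6.11 in Tp, and 7.06 and 7.13 in Cn and 8.02 and 8.0 in Tn. It passed for the difference of differences at 3.29 (adjusted p = 0.000365) and with the ring at 2.03 (adjusted p = 0.0174). Itgbl1, a protein related to integrin beta chains, had a difference of differences of 3.14 with 1 of 3 Tp arrays above the blank limit.

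Gdf5, a growth factor of forming joints, was placed only in EGFP- cells, unlike the rest of the matrix list. It read 4.41 and 4.36 in Cp and 4.10, 4.47 and 4.19 in Tp, where the groups overlapped, and 3.67 and 3.20 in Cn and 6.65 and 6.87 in Tn. Trunk EGFP- cells were the single high group (log2 difference -3.33, standard error 0.28, adjusted p = 4.62e-05), and the EGFP+ difference lay between -0.42 and 0.69.

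Among Wnt modulators, Dkk1, a secreted inhibitor of the pathway, read 7.74 and 7.34 in Cp and 5.21, 5.37 and 4.74 in Tp, against 5.68 and 5.62 in Cn and 5.37 and 5.22 in Tn. Lgr5, a receptor for R-spondins, read 6.68 and 6.51 in Cp and 4.19, 4.21 and 4.23 in Tp, with 5.65 and 5.26 in Cn and 4.79 and 4.69 in Tn. Both were highest in craniofacial EGFP+ cells, with differences of differences of 2.08 (adjusted p = 0.00854) and 1.67 (adjusted p = 0.0141), and both lost that call without Cp replicate 1 (1.88 and 1.59), Lgr5 also without Cn replicate 2 (1.48) or Tn replicate 1 (1.62). Rspo2, an R-spondin that potentiates Wnt signalling, was higher in the head in both populations, 3.48 in EGFP+ and 1.33 in EGFP- cells, with a difference of differences of 2.15 (adjusted p = 0.00403). Its EGFP- call was lost without any of the Cp, Cn and Tn arrays (1.27 to 1.39). Wnt8b, the last of the 4 named members of this list, went the other way. It was higher in the head only in EGFP- cells (2.40), with a difference of differences of -2.18.

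Other genes higher only in craniofacial EGFP+ cells were Avpr1a, a vasopressin receptor, with a difference of differences of 3.34 and 1 of 3 Tp arrays above the blank limit, Zcchc5, a zinc finger gene, with 3.86, and Crispld1, a secreted protein, with 3.30. S100a4, a calcium-binding protein, had 2.65 and Penk1, the enkephalin precursor, 2.38. Sox18 and Ramp2, genes of blood vessel endothelium, had 1.95 (adjusted p = 0.0421) and 3.07 (adjusted p = 0.000796); Sox18 lost the call without any array but Tp replicates 1 and 3 (1.82 to 2.08). Of 4 named endothelial genes 3 were higher in Cp, and the list's summed intensity was 161 to 194 in Cp and 37.1 to 58.2 in Tp, and 372 to 595 in Cn and 409 to 539 in Tn. The summed intensity of 17 skeletal muscle genes was 153 to 184 in Cp and 268 to 386 in Tp, with 5 called lower in Cp. That of 17 myeloid and mast cell genes was 99.3 to 115 in Cp and 117 to 145 in Tp, with 2 called lower in Cp. Of all 306 named probes, 43 were called higher and 177 lower in Cp. The part of such cells in the other EGFP+ differences was not tested.

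Forebrain genes made up 14 of the 25 named probes whose regional difference was placed only in EGFP- cells. Of 17 named forebrain genes, 16 were called higher in Cn than in Tn with a list median of 3.35, and 16 had a called negative difference of differences. Those calls were made for 33 and 153 of all 306 named probes, and for 0.538% and 3.01% of all tested probes. In EGFP+ cells the list's median was 0.30, with 2 called higher and 1 lower in Cp. The summed intensity was 534 to 537 in Cp and 356 to 429 in Tp, against 4330 to 4540 in Cn and 435 to 449 in Tn, so that 1 group stood out.

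Atoh7, a helix-loop-helix factor required for retinal ganglion cells, read 2.84 and 2.85 in Cp and 2.90, 2.69 and 2.35 in Tp. It read 8.01 and 7.90 in Cn and 2.38 and 2.86 in Tn. Craniofacial EGFP- cells were 40.3-fold above trunk EGFP- cells (log2 difference 5.33, standard error 0.29, adjusted p = 8.67e-07), the other 3 groups overlapped, and the difference of differences was -5.14 (adjusted p = 6.2e-05). Otx1, a homeobox factor of the fore- and midbrain, read 3.26 and 3.51 in Cp and 2.93, 3.45 and 3.02 in Tp, with 7.91 and 7.79 in Cn and 3.14 and 3.74 in Tn. The pattern was that of Atoh7, and the difference of differences passed on the processed values (-4.16, adjusted p = 0.000213) and with the ring (-1.83, adjusted p = 0.045). Fezf2, a zinc finger factor of deep-layer cortical neurons, also passed under both, at -3.22 (adjusted p = 0.000875) and -1.25 (adjusted p = 0.0406). Dmrta2 and Emx1, factors of the early cortex, had differences of differences of -4.30 and -3.95, and Olig2, a factor of motor neuron and oligodendrocyte progenitors, one of -2.94. Wnt8b, a Wnt ligand of the medial cortex, had -2.18 (adjusted p = 0.0158), with Tp replicate 3 set to the lowest value, and lost the call without Cp replicate 2 or Cn replicate 1 (-1.95 and -2.15).

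Dlx1 and Dlx2 are homeobox factors of both the ventral forebrain and the facial arches, and stand in both lists. Dlx2 read 7.37 and 7.14 in Cp and 7.27, 6.6 and 6.51 in Tp, and 8.49 and 8.56 in Cn and 4.47 and 4.46 in Tn. Both EGFP+ groups were high and overlapped, and trunk EGFP- cells were the low group. Dlx1 read 7.75 and 7.93 in Cp and 6.62, 7.06 and 6.83 in Tp, and 8.48 and 9.32 in Cn and 4.41 and 4.57 in Tn. Its EGFP+ groups did not overlap, and Cp minus Tp missed the threshold at 1.0 (adjusted p = 0.0532), together with Lbxcor1 the nearest miss of the named probes in that comparison. Foxp2, at 1.27 (adjusted p = 0.0259), was the nearest inside it.

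In the trunk, 8 named genes were higher only in EGFP- cells, 4 of them genes of the spinal cord and caudal neural tube. Of the 10 named genes of that list, 5 were placed only in EGFP- cells, the fifth being Olig2, which was higher in the head there (3.35). That class held 25 of all 306 named probes and 0.564% of all tested probes. Dll3 and Lhx9, a LIM homeobox factor, were lower in the head only in EGFP+ cells (-3.84 and -3.79), 1 gene was lower there in both populations, 1 was undecided and 1 passed no test. Pax8, a paired-box factor of spinal interneurons, kidney and thyroid, read 1.16 and 0.89 in Cp and 1.17, 1.34 and 1.77 in Tp, with 1.74 and 2.01 in Cn and 6.10 and 6.51 in Tn. It was above the blank limit on 1 of 2 Cp, 2 of 3 Tp, 1 of 2 Cn and both Tn arrays, and the difference of differences was 4.02 (adjusted p = 0.00023). Lbxcor1, a corepressor of dorsal spinal interneurons, read 1.38 and 1.67 in Cp and 2.52, 2.68 and 2.26 in Tp, and 3.52 and 3.84 in Cn and 7.95 and 8.61 in Tn. It was lower in the head in both populations, the EGFP+ difference just missing the threshold (-0.97, adjusted p = 0.0532). Msx3, a homeobox factor of the dorsal neural tube, was not above the blank limit on either Cp array and had a difference of differences of 2.91 that was lost without Cp replicate 1 or Cn replicate 1 (2.69 and 2.66). Gbx2, a factor of the hindbrain border and spinal cord, had 1.41 (adjusted p = 0.0321) and lost it without any array but Tp replicate 1 (1.31 to 1.51).

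Phlda2, an imprinted growth regulator, Saa1, an acute phase protein, and Cd83, an immunoglobulin-like protein of immune cells, were the other genes higher in trunk than in craniofacial EGFP- cells only. Their differences of differences were 3.31, 2.53 and 1.76. Saa1 did not pass on the ring-corrected values (-0.02 for the difference of differences, adjusted p = 0.989) and lost its EGFP- call without either Cn array or Tn replicate 2 (-1.90 to -1.75). Cd83, whose EGFP- difference was -1.25 (adjusted p = 0.0493), lost that call without any of the 9 arrays and the difference of differences without Cp replicate 1, Cn replicate 2 or Tn replicate 2 (1.55 to 1.65). Beside these EGFP- results, the summed intensity of 17 skeletal muscle genes was 1820 to 2340 in Cn and 3810 to 4460 in Tn, and that of 17 myeloid and mast cell genes 732 to 757 in Cn and 1140 to 1410 in Tn. Of these lists, 3 muscle genes and 1 immune gene were called lower in Cn, against 42 of all 306 named probes. The red cell list had no call in any of the 3 tests. The part of these cells in the EGFP- differences was not tested.

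**Figure D3:**
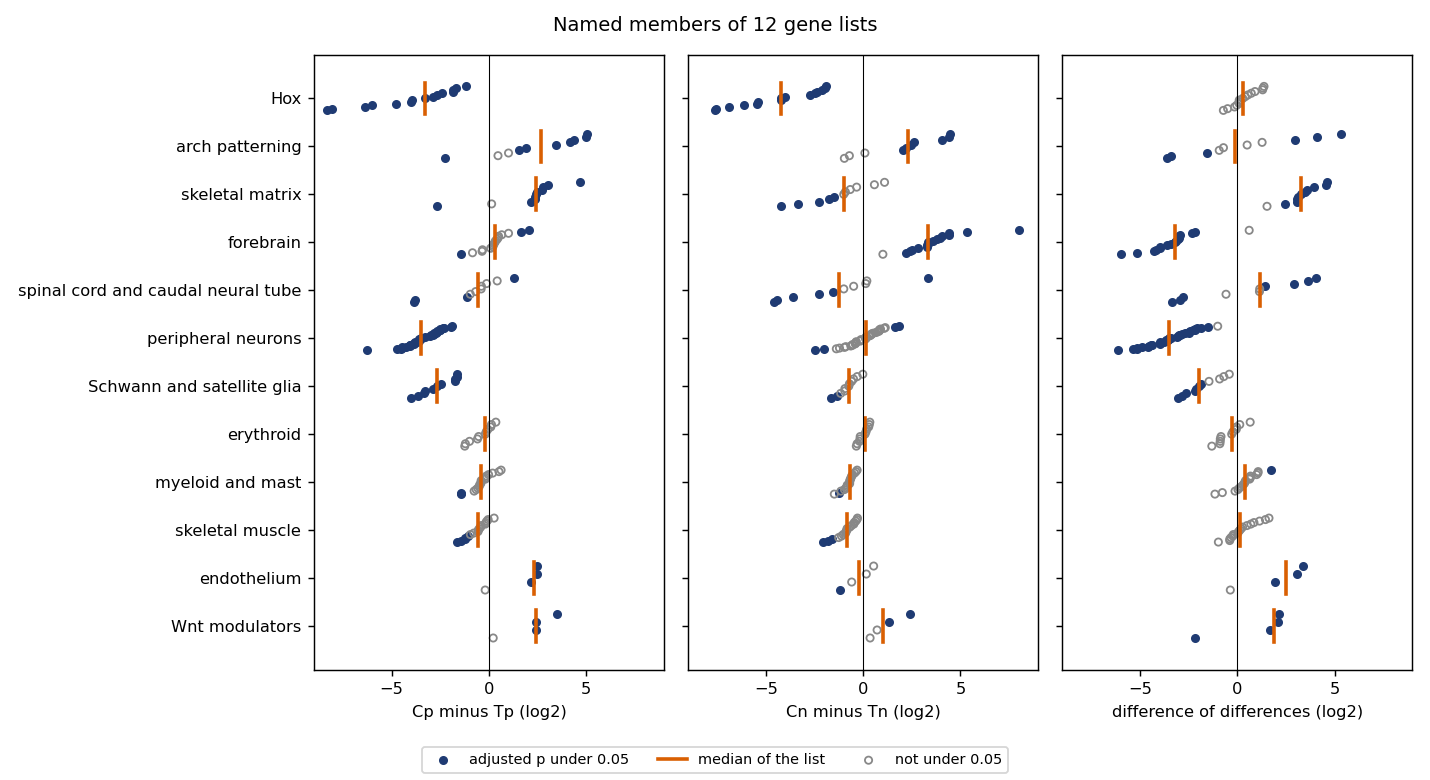
Log2 differences of the named members of 12 gene lists (rows) for Cp minus Tp, Cn minus Tn and the difference of differences (panels), filled where the adjusted p was under 0.05, with the list median as a bar. The lists of peripheral neurons and glia lie left of 0 in EGFP+ cells, and most forebrain genes right of 0 in EGFP- cells. Hox genes lie left of 0 in both, with a median difference of differences of 0.28.

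The Hox genes carried a regional difference in both populations. All 15 named were lower in the head in EGFP+ and in EGFP- cells, with medians of -3.30 and -4.21. For none was the difference of differences called (median 0.28, against 0.18 over all probes). Of all 306 named probes, 26 were lower in the head in both populations, and 192 had a called difference of differences. Over all tested probes these shares were 0.273% and 6.06%. Hoxa5 read 2.15 and 2.42 in Cp and 8.57, 8.89 and 8.52 in Tp, and 2.48 and 2.63 in Cn and 9.39 and 9.56 in Tn. Both craniofacial groups were low and both trunk groups high, 83.2-fold in EGFP+ and 121-fold in EGFP- cells. Its difference of differences of 0.54 (standard error 0.36, adjusted p = 0.525) did not pass, with an interval of -0.24 to 1.33. Hoxb6 read 1.36 and 1.07 in Cp and 9.84, 9.19 and 9.63 in Tp, and 1.35 and 1.72 in Cn and 9.11 and 9.20 in Tn, with 1 of the Cn arrays above the blank limit. Hoxa10 read 3.49 and 3.30 in Cp and 7.79, 7.35 and 7.14 in Tp, and 3.41 and 3.40 in Cn and 8.76 and 8.86 in Tn. It had the largest difference of differences of the list, 1.37 (adjusted p = 0.0576), the trunk EGFP- arrays lying above the trunk EGFP+ ones. With the scan as a block, Hoxb8 and Hoxd10 passed for the difference of differences (adjusted p = 0.0477 and 0.0321) and no other Hox gene did. The EGFP+ difference of Hoxb8, -1.16, lost its call without Cp replicate 1 (-1.06) or Cp replicate 2 (-1.26).

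Of 10 named genes that pattern the facial arches, 5 were higher in the head in both populations. Another 3 were placed only in EGFP+ and 2, Dlx1 and Dlx2, only in EGFP- cells. Of all 306 named probes, 11, 149 and 25 fell in these classes, and of all tested probes 0.0954%, 4.42% and 0.564%. Of the 3 arch genes placed only in EGFP+ cells, 2 were higher in the head. Tcfap2a, a factor of ectoderm and crest, was lower there (-2.28, adjusted p = 0.00023). It had -0.71 in EGFP- cells and a difference of differences of -1.57 (adjusted p = 0.044). Lhx8, a LIM homeobox factor of the maxillary and mandibular arch and the ventral forebrain, read 8.63 and 8.20 in Cp and 3.47, 3.63 and 3.23 in Tp, and 7.48 and 7.49 in Cn and 2.65 and 3.38 in Tn. Its regional differences were 4.98 and 4.47, and the difference of differences of 0.50 did not pass (adjusted p = 0.638), with an interval of -0.41 to 1.42. Barx1, a homeobox factor of molar teeth and stomach, rose in Cp by 3.46 and in Cn by 2.19 on the log2 scale without a called inequality (1.27, adjusted p = 0.082). Cart1, a homeobox factor of frontonasal mesenchyme, read 7.07 and 7.05 in Cp and 2.06, 2.08 and 1.98 in Tp, and 5.14 and 5.37 in Cn and 3.25 and 3.12 in Tn. It was high in the head in both populations, more so in EGFP+ cells (5.02 against 2.07 in EGFP- cells, difference of differences 2.95, adjusted p = 0.000435). Tcfap2c, a factor related to Tcfap2a, was higher by 1.89 in Cp and 2.60 in Cn. Nts, the neurotensin precursor, and Crym, a thyroid hormone-binding protein, were the other genes named in both populations, with 3.79 and 2.72 in EGFP+ and 3.59 and 1.36 in EGFP- cells; the EGFP- call of Crym was lost without any array but Tp replicates 1 and 3 (1.17 to 1.54).

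In 11 named genes the regional difference was called in both populations with opposite signs. In Stmn4, Insm1, Camk2b, Lhx2 and Gldc the head was lower in EGFP+ and higher in EGFP- cells, and in Pax1, Epyc, Mia1, Kera, A330049M08Rik and Fli1 it was higher in EGFP+ and lower in EGFP- cells. For each of the 11 the sign of the difference of differences was the same from replicates 1, replicates 2 and the ring-corrected values, and 2 passed with the ring, Stmn4 and Pax1.

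Stmn4, a stathmin of neurons that binds tubulin, read 7.02 and 6.55 in Cp and 10.33, 10.37 and 10.12 in Tp, and 10.26 and 10.13 in Cn and 8.22 and 8.46 in Tn. Trunk EGFP+ and craniofacial EGFP- cells overlapped and craniofacial EGFP+ cells were lowest, with differences of -3.49 (adjusted p = 6.03e-06) and 1.86 (adjusted p = 0.00414). Their difference was -5.35 (adjusted p = 6.2e-05), and -5.60 with the ring (adjusted p = 0.00763). Insm1, a zinc finger factor of neuroendocrine and neuronal progenitors, read 4.42 and 4.22 in Cp and 7.96, 7.69 and 7.18 in Tp, and 6.92 and 6.73 in Cn and 5.59 and 4.79 in Tn. Camk2b, a calcium-dependent kinase of neurons, had differences of -2.58 and 1.96. Lhx2, a LIM homeobox factor of forebrain and eye, read 4.40 and 4.70 in Cp and 6.06, 6.01 and 5.89 in Tp, and 10.45 and 10.31 in Cn and 7.88 and 7.82 in Tn. Every EGFP- array was above every EGFP+ array. Gldc, an enzyme of glycine breakdown, had differences of -1.49 and 1.71.

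Pax1, a paired-box factor of the sclerotome and the pharyngeal pouches, read 8.47 and 8.89 in Cp and 5.40, 5.16 and 4.92 in Tp. In EGFP- cells it read 6.52 and 7.04 in Cn and 8.50 and 8.73 in Tn. Craniofacial EGFP+ and trunk EGFP- cells were the high groups and overlapped. The differences were 3.52 (adjusted p = 1e-05) and -1.84 (adjusted p = 0.00856), and the difference of differences 5.36 (adjusted p = 6.2e-05), or 3.67 with the ring (adjusted p = 0.0284). Epyc and Kera, proteoglycans of growth plate cartilage and of the cornea, and Mia1, a protein secreted by chondrocytes, went the same way. Epyc read 5.08 and 5.09 in Cp and 2.73, 3.11 and 2.38 in Tp, and 3.53 and 3.77 in Cn and 6.0 and 5.79 in Tn. Mia1 had differences of 2.77 and -1.77, and Kera of 2.44 and -1.51. Fli1, an ETS factor of endothelium and blood, had 2.16 and -1.21, the EGFP- value at the edge of the threshold (adjusted p = 0.0497) and 0.12 with the ring. The EGFP- call was lost when a single array was left out for 7 of the 11. For Stmn4 (1.80) and Gldc (1.62) that was Cn replicate 1, for Mia1 (-1.59) Tn replicate 1, and for Pax1 Cn replicate 1 (-1.58) or Tn replicate 2 (-1.72). Kera and Insm1 lost it without any of 6 arrays (-1.54 to -1.48 and 1.23 to 1.72) and Fli1 without any of the 9 (-1.36 to -1.06). A330049M08Rik lost its EGFP+ call without either Cp array or Tp replicate 3 (0.94 to 1.16).

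**Figure D4:**
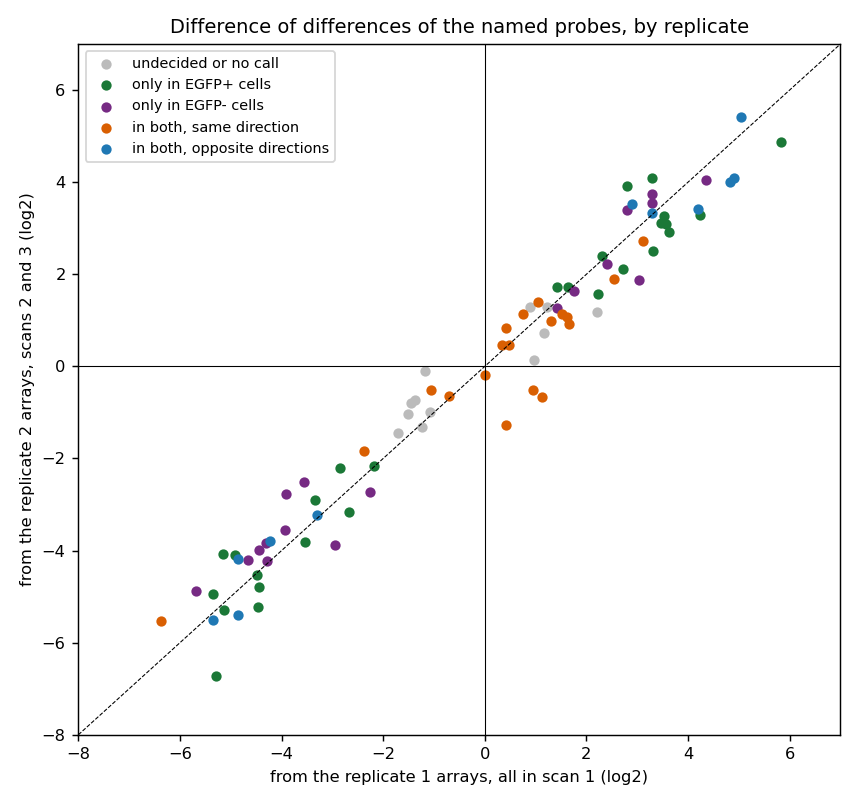
Difference of differences (log2) from the replicate 1 arrays, which shared a scan (horizontal axis), against that from the replicate 2 arrays (vertical axis), 1 point per probe for the 87 probes named by rule, coloured by class, with equality as a dashed line. Points of the classes only in EGFP+, only in EGFP- and opposite lie near the dashed line and away from 0, from -5.29 and -6.73 for Th to 5.84 and 4.87 for Pax7.

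Computed from replicates 1 alone and replicates 2 alone, the difference of differences had the same sign for 149 of the 149 named probes only in EGFP+ cells, 25 of 25 only in EGFP- cells and 11 of 11 opposite ones. With the scan as a block all of them passed for the difference of differences. The classes also rest on the 2 regional differences. Over all probes the block kept 1451 of the 2007 calls for Cp minus Tp and 182 of the 300 for Cn minus Tn. Only the scan of the replicate 1 arrays held both regions, with 1 array per group. The regional differences of the block fit rest on that scan, so the kept calls are no replication across scans. The replicate arrays are the ones that chose these classes, so the shared sign follows in part from that choice and is no check of the scan. Of the 31 named probes in both populations with no called inequality, the sign was the same for 23.

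The remaining named genes carried no such assignment. In 25 undecided probes the regional difference was called in 1 population and the inequality in neither direction, among them C1qb of macrophages (-1.46 in EGFP+ and -0.31 in EGFP- cells), the muscle genes Tnnc1 (-1.45 and -0.48), Chrna1 (-0.16 and -1.61) and Vgll2 (-0.43 and -2.06), and the glial Pmp2. The named probe just inside the threshold for the difference of differences was Phyhipl (-1.32, adjusted p = 0.0466) and the one outside Crym (1.36, adjusted p = 0.0521). Ap1m2 (-1.66) passed only for the difference of differences. Of the 58 named probes with no call, the 11 of red cell genes had a median difference of differences of -0.29. Hbb-b1, a beta globin, read 9.02 and 8.39 in Cp and 9.59, 9.25 and 8.88 in Tp, and 15.28 and 14.90 in Cn and 14.47 and 15.03 in Tn on the brighter of its probes. EGFP+ and EGFP- arrays lay far apart in both regions, while the regions overlapped within each population.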

How the data were processed

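RNA of sorted cells was hybridised to 9 arrays with 1 colour (Cy5), and the authors deposited 2 kinds of intensity values for each: the scanner's readings of spots and of their surrounding rings, and a linear processed intensity per probe. The processed intensity tracks the spot median less the blank level, scaled per array; its formula and the scanner software are not named by any source used. The study names R and GeneSpring.

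Groups came from the sample titles. Empty cells were set to the lowest value of the array, except 13 values of spots marked as bad, which stayed missing, and log2 was taken. Between 781 and 2776 of 23473 cells were empty per array. Probes with a value on at least 2 arrays were tested in 1 fit of 4 group means with limma 3.58.1 in R 4.3.3 (two-sided, 5 residual and 6.69 prior degrees of freedom), with Benjamini-Hochberg adjustment over all 23062 probes for each of the 3 contrasts. The arrays limit the precision by their number. A fold against a group never above the blank limit (mean plus 2 SD of 2736 blank spots) is a lower bound against the level at that limit, or the probe's own value where higher.

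Names came from the study's supplementary list. Named in the text are, by class, the 8 highest and 8 lowest differences of differences (means of both differences for the same direction), up to 4 members per gene list by size, and genes the study names in its results; Pmp2, Ap1m2, Phyhipl, Foxp2, Tcfap2a and Lhx9 were chosen after their values were seen. Some genes that the rule names are not reported here. The members and lists were chosen with earlier results of these data known. The fit was tested on simulated data. Promoters came from RefSeq (GRCm38.p6). Alternatives were other treatments of empty cells, filters, an offset of 16, quantile normalization, scanner signals with ring background (normexp, offset 50, quantile), scan or replicate as a block, an adjusted p of 0.01, no moderation and leaving out arrays. Chosen after seeing the data were 1 adjustment over the 3 tests, empty cells above the blank limit as missing and 2 filters on the blank limit. The labels and the methods name different RNA kits.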

Additional observations from a re-analysis of the deposited data

Results flagged for a closer look

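The difference between the populations was itself tested and passed for 1398 probes. Among the named genes, the following passed it with called regional differences of opposite sign in EGFP+ and EGFP- cells. The difference of differences was 5.36 for Pax1, 4.59 for Epyc, 4.54 for Mia1, 3.96 for Kera, 3.39 for A330049M08Rik and 3.37 for Fli1, all higher in the head in EGFP+ cells and lower there in EGFP- cells. It was -5.35 for Stmn4, -4.92 for Insm1, -4.55 for Camk2b, -3.96 for Lhx2 and -3.20 for Gldc, the other way round. A group of 2 or 3 arrays is too small to look for an array that stands apart.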

How the results depend on the processing

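Ring-corrected scanner values left 86 probes for Cp minus Tp, 38 for Cn minus Tn and 45 for the difference of differences, with 23 only in EGFP+ cells, 13 only in EGFP- cells and 5 in both. An adjusted p of 0.01 left 1205, 170, 630, 481, 67 and 64 in the same order, and no moderation of the variances 1121, 77, 524, 420, 25 and 50. The scan as a block, which drops Tp replicate 3 and leaves 2 residual degrees of freedom, gave 2213 for the difference of differences. It gave 1908 for Cp minus Tp, 1451 of them shared with the main fit, and 239 for Cn minus Tn, 182 of them shared. These regional counts rest on the only scan that held both regions. One adjustment over the 3 tests gave 529 for Cn minus Tn and 184 in both. The interval condition left 320 only in EGFP+ and 55 only in EGFP- cells. Leaving out 1 array gave 1044 to 2031 for Cp minus Tp, 146 to 327 for Cn minus Tn, 787 to 1417 for the difference of differences, 543 to 986 only in EGFP+ cells, 61 to 138 only in EGFP- cells and 71 to 131 in both. Counts moved by over 1.5 times without Cp replicate 1 (1044 for Cp minus Tp, 787 for the difference of differences, 543 only in EGFP+ cells, 71 in both), Cp replicate 2 (1075, 836, 581 and 76) and Cn replicate 1 (146 for Cn minus Tn, 875 for the difference of differences, 670 only in EGFP+ cells, 61 only in EGFP- cells, 71 in both). Without Tp replicate 3 the counts were 1730, 273, 1173, 853, 115 and 104. With the ring, Fli1 turned to 0.12 for Cn minus Tn, and Saa1 to 0.056 for Cn minus Tn and -0.017 for the difference of differences. Under the other alternatives these counts stayed within 1.5 times. The cause was not tested in any of these.

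Of the calls for Cn minus Tn, 41.3% were higher in Cn, and 54.0% with quantile normalization and 52.6% with the ring; of those for Cp minus Tp 45.4% were higher in Cp, and 30.2% with the ring; of those for the difference of differences 50.3% were positive, and 33.3% with the ring. Quantile normalization moved the median Cn minus Tn over all probes from -0.15 to 0 and that of the difference of differences from 0.18 to 0.04. Of the 87 named probes, 60 were called for the difference of differences; on the ring-corrected values 9 of these still passed, 50 no longer did and 1 turned. The deviations of replicate 1 from replicate 2 correlated between groups by 0.07 (Cn and Tn) to 0.43 (Tp and Tn). The highest values, 0.42 for Cp and Cn and 0.43 for Tp and Tn, were for EGFP+ and EGFP- cells of the same region. The numbers were not taken as pairs because the value was not above 0.1 for every pair of groups. That rule does not settle whether same-region arrays were paired. In replicates 1 and 2, EGFP+ and EGFP- arrays of the same region and number also shared a scan. A pairing and a shared scan therefore cannot be told apart here. For the difference of differences, the fit with the scan as a block is also the fit of such a pairing within each region. It gave 2213 calls, 1343 of them shared with the main fit. With the replicate block 1614 probes passed for the difference of differences, 1310 of them shared. Of the 87 named probes 3 gained the call and none lost it.

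Limits are set by 2 or 3 arrays a group, by signals close to the blanks on part of the probes, and by names for 306 probes that the study chose on these arrays.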
